A study of Mus musculus with 6 samples.

Results

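The genes described here are Foxo1, Foxo3 and Foxo4, which encode 3 of the FOXO transcription factors, and Btg1, Ccng2, Txnip, Pik3ip1 and Cited2, which have been linked to FOXO activity or to exit from the cell cycle. These 8 genes were chosen by name out of 23896 named genes. The choice, like that of the gene lists below, was made with earlier results of these data known. Counts set beside those of all genes are therefore a description. Where a gene had several RefSeq transcripts, the one with the highest mean count stood for it. All 8 passed the filter on low counts and were among the 12381 genes tested. They were followed in MEL cells, a mouse erythroleukemia line blocked at an early erythroid stage, which matures along the red cell path when dimethyl sulfoxide (DMSO) is added. Poly(A) RNA was sequenced from untreated cells in log phase growth (day 0) and from cells kept in 2% DMSO for 2 or 4 days, with 2 replicates per day and 6 libraries in all. There was no vehicle or time-matched untreated control, so time in culture and DMSO cannot be told apart. The study calls the replicates biological, but the labels do not name separate cultures, so the p-values measure the spread between these samples. A level from bulk RNA does not tell fewer cells of a type from less RNA per cell.

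FOXO proteins are forkhead transcription factors that answer to insulin and growth factor signalling. When phosphatidylinositol 3-kinase (PI3K) is active, the kinase AKT phosphorylates them and they are held outside the nucleus. When the signal drops they enter the nucleus and switch on genes of cell cycle arrest, stress resistance, autophagy and cell death. FOXO3 is known in the red cell lineage for its part in protection from oxidants during maturation. The libraries measure transcript levels, so phosphorylation and nuclear entry of the FOXO proteins were not measured.

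The forkhead core motif was searched in the promoters because the FOXO proteins read it, and the sequences that matched are shown to place the genes against the factors. A 300-base window, from 250 bases before to 50 bases after the annotated start, was taken from RefSeq on GRCm38.p6. The window was found for 7 of the genes, with no entry for Foxo4. Capitals mark the motif, GTAAACA on either strand, and the letters run 5′ to 3′ on the gene's strand.

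Txnip, chr3:96557826-96557852, plus strand: tggaggcctgGTAAACAagggccaagt

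Btg1, chr10:96616787-96616813, plus strand: ggggtttattTGTTTACaagcagatta

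In Txnip the motif began 121 bases before the start, in the gene's orientation. In Btg1 it began 204 bases before the start, in the opposite orientation. The same letters occurred in 3.65% of 32851 promoter windows of this length, 1199 in all. The E-box CACGTG, which occurred in 7.15% of windows, was found in Cited2 alone among the 7 promoters, 153 bases before the start (motif in capitals).

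Cited2, chr10:17723065-17723090, plus strand: agccgctgcgCACGTGcagcgcggac

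The GATA motif AGATAA, in 11.2% of windows, was found in none of the 7. A match is a run of letters in this window, and binding was not measured here.

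Counts assigned to transcripts ranged from 35294930 to 53899476 per library, beside 50.5% to 58.4% of reads that fell in no feature. The erythroid label was checked on 12 markers, of which 11 were in the table. Their summed level was 1104 and 1126 CPM (counts relative to library size, the unit of level used here) in the day 0 libraries. It was 4782 and 5707 CPM in those of day 2 and 18380 and 20000 CPM in those of day 4. Most of the sum at days 2 and 4 came from 2 globin genes, Hba-a1 (353472 and 518658 counts at day 4) and Hbb-bs (179353 and 230886). By day 2, 8 of the 11 markers were called higher than at day 0, 1 was called lower and 2 were not called. By day 4, 10 of the 11 were called higher than at day 0 and Klf1 was called lower. Markers of other blood cells summed to 225 to 254 CPM at days 0 and 2 and to 555 and 612 CPM at day 4, of 15 in the table, 6 of them tested. Most of that sum was Itga2b, a platelet integrin also made by early progenitors, whose log2 fold change from day 0 to day 4 was 1.38 (SE 0.13, adjusted p = 2.39e-06). Pf4, a platelet chemokine, fell by 2.39 on the same scale (SE 0.16, adjusted p = 3.18e-07). The B cell gene Ms4a1 and the natural killer cell gene Ncr1 had 0 counts in every library. The part of such cells in the results was not tested.

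By day 2, 6 of the 8 genes were called higher than at day 0 and 1, Cited2, was called lower. Here and below a call is an adjusted p under 0.05 in edgeR's quasi-likelihood test, adjusted over all 18351 transcripts tested. Much of the transcriptome moved in this step, with 62.5% of genes called, 31.0% higher and 31.5% lower. From day 2 to day 4, 3 of the 8 were called higher and 0 lower, against 30.3% of all genes called, 14.0% higher and 16.2% lower. Over the whole course 6 were called higher and 1 lower, against 71.8% of all genes called, 35.5% higher and 36.4% lower. Calls were thus common among all genes, and the sizes are given beside them. The median log2 fold change of the 8 was 0.74 in the first step, 0.35 in the second and 1.09 over both, where the medians of all tested genes were 0.01, -0.005 and -0.02. Scaling by total counts instead of TMM (trimmed mean of M values) factors moved the median of all genes in the first step to 0.21 and raised the share of calls that were higher from 49.6% to 63.5%. In the second step that scaling lowered the share from 46.4% to 32.7%, with the median of all genes at -0.09.

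**Figure D1:**
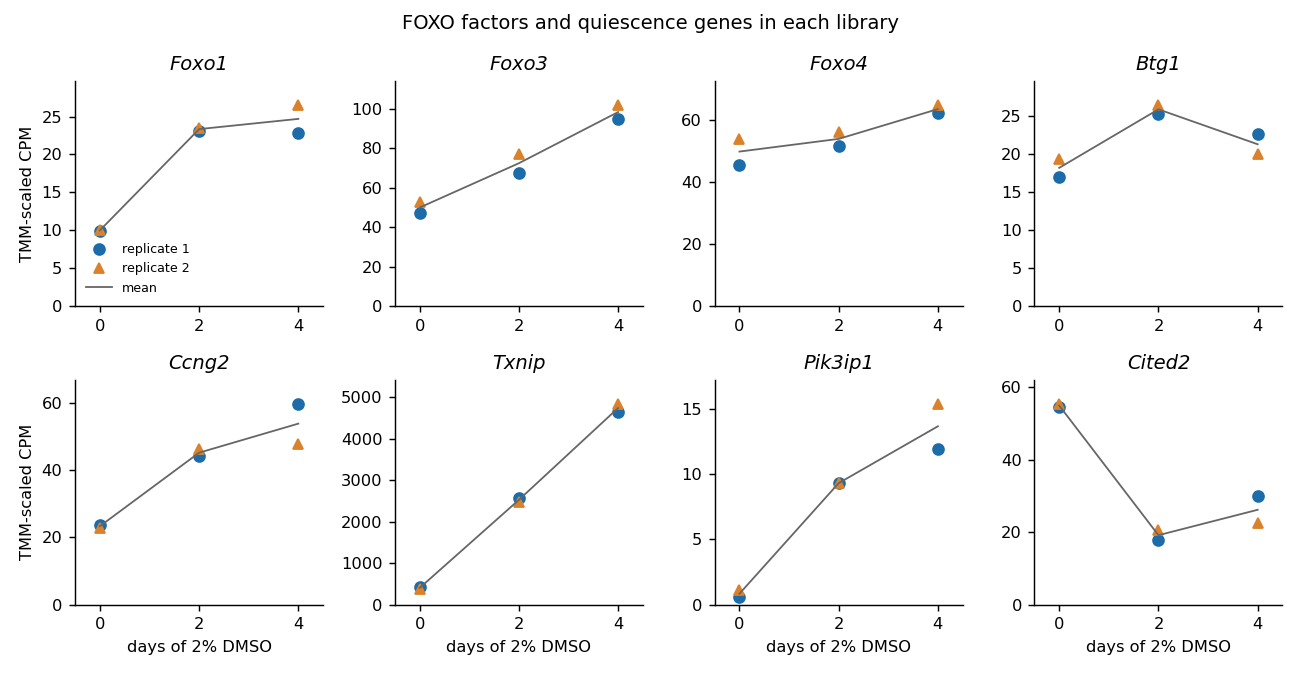
Level of each gene in every library (vertical axis, TMM-scaled CPM, each panel from 0) against days of DMSO (horizontal axis), with circles and triangles for the 2 replicates and a line through the means. Txnip climbed from 384 to 4841 CPM, Cited2 fell at day 2, and Btg1 was highest at day 2.

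Among the FOXO factors, Foxo3 rose in both steps, Foxo1 rose by day 2, and Foxo4 had the smallest change of the 3 over the course. Foxo1 (chromosome 3, 52268337 to 52350109, plus strand, GRCm38 here and below) had 9.95 and 10.0 CPM, scaled by TMM, in the day 0 libraries, 23.1 and 23.6 at day 2, and 22.9 and 26.5 at day 4. Both treated days lay apart from day 0, and they overlapped each other. The log2 fold change was 1.22 in the first step (SE 0.13, adjusted p = 1.22e-05) and 0.08 in the second (SE 0.12, adjusted p = 0.641), which left Foxo1 2.47-fold higher at day 4 than at day 0. The sign of the second change turned with total count scaling (-0.003) and without day 4 replicate 2 (-0.03). The gene overlaps Gm20402 on the other strand and Gm38034 on its own, and how the counting treated reads there is not stated.

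Foxo3, the member of the family with a known role in red cell maturation, lies on chromosome 10 (42181845 to 42276695, minus strand). Its libraries gave 47.1 and 52.7 CPM at day 0, 67.5 and 77.1 at day 2, and 94.7 and 102 at day 4. No library of a later day overlapped an earlier one. The log2 fold change was 0.54 in the first step (SE 0.11, adjusted p = 0.00172) and 0.44 in the second (SE 0.11, adjusted p = 0.0132), and Foxo3 ended 1.97-fold higher. The second call was lost without day 2 replicate 1 (0.35, adjusted p = 0.186) or day 4 replicate 2 (0.39, adjusted p = 0.121), while the rise over both steps kept its call without any single library.

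Foxo4, on chromosome X (101254261 to 101260873, plus strand), had 45.6 and 53.9 CPM at day 0, 51.6 and 56.0 at day 2, and 62.1 and 64.6 at day 4. The first 2 days overlapped and day 4 lay above both. Neither step was called (0.11, SE 0.11, adjusted p = 0.406, and 0.24, SE 0.11, adjusted p = 0.139), and the change over both was 0.35 (SE 0.11, adjusted p = 0.0168), a 1.27-fold rise. That call was lost without day 0 replicate 1 (0.23, adjusted p = 0.0623), day 4 replicate 1 (0.38, adjusted p = 0.0526) or day 4 replicate 2 (0.32, adjusted p = 0.0999). With total count scaling the first step was called (0.31, adjusted p = 0.031). The second step was called without day 0 replicate 1 (0.23, adjusted p = 0.0397) or replicate 2 (0.23, adjusted p = 0.0379). Foxo6, the remaining FOXO gene and one known mainly from brain, was low, with 2.48 and 3.08 CPM at day 0, 4.62 and 5.05 at day 2, and 3.96 and 3.89 at day 4. Its change from day 0 to day 4 was 0.49 (SE 0.18, adjusted p = 0.0316).

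Levels of different genes were compared as TPM, a level relative to library total that is also divided by transcript length and carries no TMM factor. At day 0 Foxo3 stood at 38.6 ± 2.11 TPM (SD, n = 2) and Foxo4 at 35.1 ± 3.31, and their libraries overlapped. By day 4 they stood at 82.7 ± 2.73 and 48.8 ± 0.557 and were apart. Foxo1 was at 2.58 ± 0.0477, 7.22 ± 0.0504 and 6.93 ± 0.599 TPM on the 3 days, far below both. Foxo6, at 2.37 ± 0.309, overlapped Foxo1 at day 0 and was below it later, at 4.95 ± 0.281 and 3.66 ± 0.110. Of the TPM summed over the 4 FOXO genes, Foxo3 made up 49.7% and 48.5% in the day 0 libraries. Its share was 53.0% and 54.4% at day 2 and 58.0% and 58.5% at day 4, while Foxo4 went from 43.9% and 45.3% to 34.7% and 34.0%. These shares depend on the length given to Foxo3, which was 2889 bases in the model matched to the counted accession. With the longest annotated model of 6848 bases, Foxo3 made up 28.4% to 29.4% at day 0 and 36.8% to 37.3% at day 4, Foxo4 was then the larger of the pair on every day, and the share of Foxo3 still rose.

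**Figure D2:**
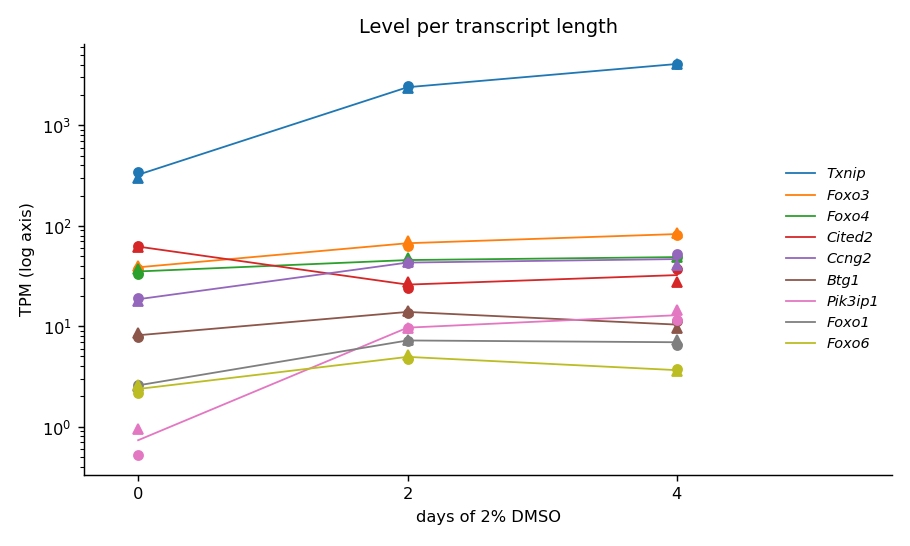
TPM of the 8 genes and Foxo6 (vertical log axis) against days of DMSO (horizontal axis), with circles for replicate 1, triangles for replicate 2 and lines through the means. Txnip lay above all the others on each day, and Pik3ip1 moved from the lowest place at day 0 (0.734 TPM) to above Btg1 at day 4 (12.9 against 10.4 TPM).

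Txnip, whose product binds and inhibits thioredoxin and restrains glucose uptake, was the most abundant of the 8 on every day. It lies on chromosome 3 (96557957 to 96561857, plus strand), and its promoter carries the forkhead motif shown above. The libraries gave 430 and 384 CPM at day 0, 2579 and 2475 at day 2, and 4637 and 4841 at day 4, and the days did not overlap. The log2 fold change was 2.64 in the first step (SE 0.15, adjusted p = 2.39e-07) and 0.91 in the second (SE 0.14, adjusted p = 0.00109), an 11.7-fold rise over both (log2 fold change 3.54, SE 0.15, adjusted p = 1.85e-08). Txnip took 0.0354% and 0.0404% of all counts at day 0, 0.265% and 0.274% at day 2, and 0.474% and 0.480% at day 4. By mean TPM it moved from place 306 to place 18 and then to place 8 of 12229 genes with a length. Its 2 RefSeq accessions differed by at most 10 reads in any library, so the counts do not separate the isoforms. The antisense gene Gm15441 has 606 of its 1653 exon bases inside Txnip exons and had 4 to 19 counts per library, so few reads were assigned to that strand.

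Pik3ip1 encodes a membrane protein that binds the catalytic subunit of PI3K and dampens it, which places it upstream of AKT and the FOXO proteins. It lies on chromosome 11 (3319241 to 3342971, plus strand) and overlaps Gm12592 on the other strand. It was nearly silent at day 0, with 24 and 55 counts, or 0.588 and 1.11 CPM. It then reached 9.29 and 9.30 CPM at day 2 and 11.9 and 15.4 at day 4, with no overlap between days. The log2 fold change was 3.42 in the first step (SE 0.25, adjusted p = 1.29e-06) and 3.98 over both (SE 0.25, adjusted p = 1.89e-07), a 15.7-fold rise that rests on those few counts at day 0. The second step, 0.55 (SE 0.20, adjusted p = 0.0515), just missed the call and passed it with DESeq2 (0.56, adjusted p = 0.0367). It also passed without day 0 replicate 1 (0.55, adjusted p = 0.00481), day 0 replicate 2 (0.55, adjusted p = 0.00493) or day 4 replicate 1 (0.72, adjusted p = 0.0414).

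Ccng2 encodes cyclin G2, an unconventional cyclin found in cells that leave the cycle and a described FOXO target. It lies on chromosome 5 (93267573 to 93276231, plus strand). Its libraries gave 23.7 and 22.9 CPM at day 0, 44.1 and 46.1 at day 2, and 59.6 and 47.8 at day 4. The days did not overlap, and the day 4 replicates lay further apart than those of the other days. The first step was called (0.95, SE 0.13, adjusted p = 7.77e-05), the second was not (0.25, SE 0.12, adjusted p = 0.149), and the rise over both was 2.30-fold (1.20, SE 0.13, adjusted p = 7.61e-06).

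Btg1, an antiproliferative gene whose product binds the CNOT7 and CNOT8 deadenylases, was highest at day 2. It lies on chromosome 10 (96617001 to 96622813, plus strand), and its promoter carries the other forkhead match. Its libraries gave 17.1 and 19.4 CPM at day 0, 25.4 and 26.5 at day 2, and 22.6 and 20.0 at day 4. Day 4 lay between the other days and overlapped neither. The first step was a rise of 0.51 (SE 0.13, adjusted p = 0.00452), the second step was -0.28 (SE 0.13, adjusted p = 0.108), and day 4 against day 0 was 0.22 (SE 0.13, adjusted p = 0.13). The second step was called without day 0 replicate 1 (-0.29, adjusted p = 0.0327) or replicate 2 (-0.29, adjusted p = 0.0338), and day 4 against day 0 was called with total count scaling (0.34, adjusted p = 0.0335) and without day 0 replicate 2 (0.31, adjusted p = 0.0466). Of the 32-base words of the Btg1 transcript, 4.08% occur in transcripts of other genes, 9 in all, so its level is less certain than that of the others.

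Cited2, a transcriptional coregulator that binds CBP and p300 and competes there with the hypoxia factor HIF1A, was the only one of the 8 that fell. It lies on chromosome 10 (17723228 to 17725674, plus strand). Its libraries gave 54.4 and 55.4 CPM at day 0, 17.8 and 20.6 at day 2, and 29.9 and 22.5 at day 4. Day 0 lay above both other days, and day 4 lay above day 2. Cited2 fell by 1.52 on the log2 scale in the first step (SE 0.15, adjusted p = 7.96e-06), regained 0.45 in the second (SE 0.15, adjusted p = 0.0392), and over both steps fell by 1.07 (SE 0.15, adjusted p = 5.08e-05). The call on the second step was lost with total count scaling (0.37, adjusted p = 0.0908) and without day 2 replicate 1 (0.35, adjusted p = 0.297), day 2 replicate 2 (0.55, adjusted p = 0.0966) or day 4 replicate 1 (0.23, adjusted p = 0.336).

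**Figure D3:**
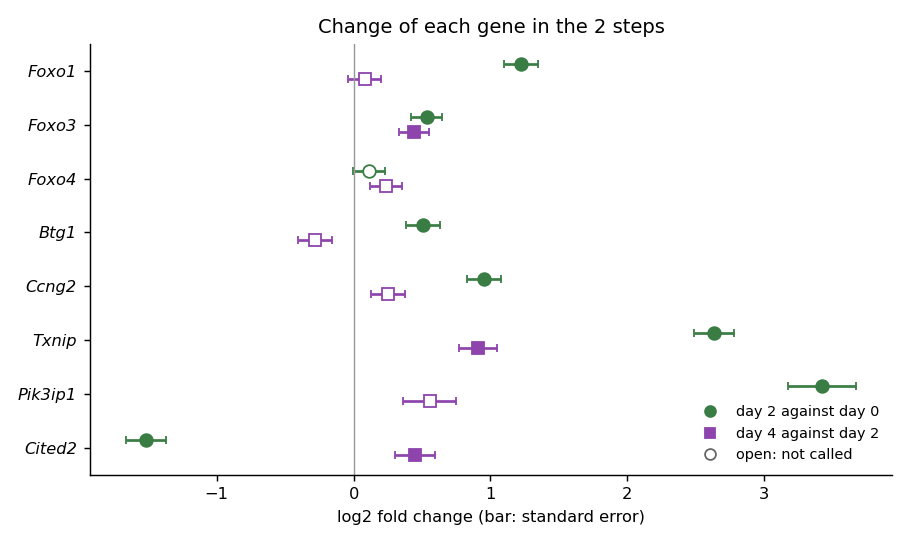
Log2 fold change (horizontal axis) of each gene in the step from day 0 to day 2 (circles) and from day 2 to day 4 (squares), with bars for the standard error and open symbols for changes that were not called. For Foxo3 the 2 steps lie close together, and for Txnip, Pik3ip1 and Foxo1 the first is by far the larger.

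The first log2 change was larger in size than the second in every gene but Foxo4 (0.11 and 0.24), and only a little larger in Foxo3 (0.54 and 0.44). The signed difference between the second and the first log2 change was tested for each gene, and it was called for 6 of the 8, against 30.0% of all genes. A turn in direction enlarges this difference, as in Btg1 (0.51, then -0.28) and Cited2 (-1.52, then 0.45), so a call does not say which step was larger. The second step was lower than the first by 2.87 in Pik3ip1 (-2.87, SE 0.37, adjusted p = 0.000428), by 1.73 in Txnip (-1.73, SE 0.23, adjusted p = 0.000549) and by 1.14 in Foxo1 (-1.14, SE 0.21, adjusted p = 0.00292). It was also lower in Btg1 (-0.79, SE 0.21, adjusted p = 0.0184) and Ccng2 (-0.70, SE 0.21, adjusted p = 0.0307). In Cited2 it was higher (1.96, SE 0.26, adjusted p = 0.00054). For Foxo3 (-0.09, SE 0.19, adjusted p = 0.743) and Foxo4 (0.12, SE 0.20, adjusted p = 0.668) no difference was called. The number called fell to 3 without either of the day 2 replicates, when Foxo1, Btg1 and Ccng2 missed the threshold (adjusted p between 0.0524 and 0.226). Without day 4 replicate 2, Btg1 (-0.71, adjusted p = 0.0608) and Ccng2 (-0.55, adjusted p = 0.111) missed it as well.

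The pathway that restrains the FOXO proteins was followed on a list of 32 genes of PI3K and AKT signalling, of which 31 were tested. Between day 0 and day 4, 16 were called higher and 9 lower, with a median log2 fold change of 0.27. Of all tested genes, 71.8% were called between these days, 35.5% higher and 36.4% lower, with a median of -0.02, and each list count from day 0 to day 4 stands against those shares. Irs2, the insulin receptor adaptor and itself a described FOXO target, rose by 3.48 (SE 0.13, adjusted p = 9.02e-09), from 28.5 and 27.6 CPM to 299 and 325. Pik3r3, a regulatory subunit of PI3K, rose by 2.72 (SE 0.13, adjusted p = 3.06e-08). The kinase Sgk1, a relative of AKT that also phosphorylates FOXO proteins, fell by 2.54 (SE 0.21, adjusted p = 1.16e-06), and Pik3r5, another regulatory subunit, fell by 2.13 (SE 0.21, adjusted p = 4.04e-06). Of the kinases themselves, Akt1 fell by 0.55 (SE 0.12, adjusted p = 0.00155) and Akt2 fell by 0.28 (SE 0.11, adjusted p = 0.0338).

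Among 29 tested genes that modify FOXO proteins or work with them, 7 were called higher and 11 lower, with a median of -0.14, where 71.8% of all genes were called, and the count shows nothing particular to the list. The deacetylase Sirt2 and the ubiquitin ligase Stub1 each rose by 1.01 (SE 0.10 and 0.12). Prmt1, an arginine methyltransferase that also binds BTG1, fell by 2.08 (SE 0.12, adjusted p = 9.86e-08), from 209 and 189 CPM to 50.7 and 43.6. Skp2, a ubiquitin ligase subunit known to target FOXO1, fell by 1.61 (SE 0.12, adjusted p = 5.78e-07).

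Of 44 genes reported as FOXO targets in various tissues, 30 were tested. By day 4, 17 were called higher and 8 lower, with a median of 0.54, beside 35.5% higher and 36.4% lower among all genes. Irs2, Insr and Rictor, all called higher, are also on the list of PI3K and AKT signalling and count in both. The death gene Bcl2l11, which encodes BIM, rose by 2.88 (SE 0.14, adjusted p = 4.48e-08), from 10.1 and 11.1 CPM to 70.3 and 86.0. The fallers included Bnip3, a mitophagy receptor, at -3.33 (SE 0.47, adjusted p = 7.37e-05), whose day 0 libraries lay far apart at 39.6 and 157 CPM, and Trib3, an AKT-binding pseudokinase, at -2.77 (SE 0.30, adjusted p = 9.6e-06). The cell cycle inhibitor Cdkn1b, often read as a FOXO target, was not called, with 0.32 (SE 0.16, adjusted p = 0.0904). Cdkn1a and Cdkn2d, also inhibitors of the cycle and named after their values were seen, were called lower. Cdkn1a fell by 1.93 (SE 0.22, adjusted p = 1.13e-05) and Cdkn2d by 0.51 (SE 0.18, adjusted p = 0.0221). Of the antioxidant enzyme genes listed, also named afterwards, Sod2 fell by 0.94 (SE 0.12, adjusted p = 3.35e-05), and Cat and Prdx3 were not called from day 0 to day 4. Within that span Cat was called lower in the first step (-0.59, SE 0.13, adjusted p = 0.00253) and higher in the second (0.85, SE 0.13, adjusted p = 0.00124). The other 14 genes of the list did not pass the filter on low counts.

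The relatives of the remaining genes were uneven. Of the BTG and TOB family, which joins Btg1 in slowing growth, 4 of 5 were tested and 3 were called higher by day 4, beside 35.5% of all genes. Btg2 rose by 3.66 (SE 0.14, adjusted p = 1.24e-08), from 9.34 and 11.8 CPM to 130 and 137, a far larger change than that of Btg1. Tob1 rose by 0.92 (SE 0.13, adjusted p = 6.57e-05) and Btg3 by 0.54 (SE 0.15, adjusted p = 0.00617), while Tob2 gave 0.05 (SE 0.14, adjusted p = 0.737) and Btg4 had 0 counts. Of 12 deadenylase subunits and poly(A)-binding partners, 3 were called higher and 3 lower, where 71.8% of all genes were called. Cnot7, a deadenylase that BTG proteins bind, rose by 0.68 (SE 0.12, adjusted p = 0.000378) and Cnot6l rose by 0.53 (SE 0.11, adjusted p = 0.00138). Cnot8, whose product BTG1 also binds and which was named after its value was seen, was not called (-0.15, SE 0.11, adjusted p = 0.24). Cnot9 fell by 0.99 (SE 0.10, adjusted p = 5.85e-06) and Pabpc4 fell by 0.49 (SE 0.13, adjusted p = 0.00676).

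Of 4 relatives of cyclin G2, 3 were called higher and 1 lower, beside 35.5% and 36.4% of all genes. Ccni, which encodes cyclin I, rose by 1.35 (SE 0.11, adjusted p = 8.22e-07), and Ccng1, a target of p53, rose by 0.60 (SE 0.10, adjusted p = 0.00032), with its highest libraries at day 2 (125 and 116 CPM). Ccnf fell by 0.64 (SE 0.10, adjusted p = 0.00017). Around Txnip, 9 of 10 arrestin relatives and genes of the thioredoxin system were tested, with 4 called higher and 4 lower, beside the same shares. Arrdc3 rose by 2.47 (SE 0.14, adjusted p = 8.39e-08), Arrdc1 by 1.04 (SE 0.14, adjusted p = 5.55e-05) and Arrdc2 by 0.35 (SE 0.15, adjusted p = 0.0483), whereas Arrdc4, like Txnip a known target of MondoA, had 1 count in all 6 libraries together. The thioredoxin side held fallers, as Txnrd1 fell by 0.79 (SE 0.10, adjusted p = 4.28e-05) and Txn2 fell by 0.95 (SE 0.11, adjusted p = 1.44e-05), and Txnrd3 rose by 1.13 (SE 0.13, adjusted p = 1.67e-05).

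Of the MondoA and ChREBP network, the sugar-sensing factors known to drive Txnip and their partners, 6 of 7 were tested, and 3 were called higher and 0 lower by day 4, beside 35.5% and 36.4% of all genes. Mxd4 rose by 3.33 (SE 0.12, adjusted p = 8.36e-09) and Mxd1 by 2.24 (SE 0.13, adjusted p = 1.48e-07), both of them repressors that pair with MAX. The third, Mlxip, which encodes MondoA and was chosen for mention after its value was seen, rose by 1.05. Of 8 listed relatives and partners of Cited2, 3 were tested, and 1 was called higher and 0 lower from day 0 to day 4. The genes of CBP and p300, which CITED2 binds, stood on the list of FOXO modifiers instead. Named after their values were seen, both were called higher over these days. Crebbp rose by 0.82 (SE 0.11, adjusted p = 4.79e-05) and Ep300 by 0.87 (SE 0.11, adjusted p = 2.79e-05). Arnt, which encodes the partner of HIF1A, rose by 0.64 (SE 0.11, adjusted p = 0.000306) and Cited4 gave -0.20 (SE 0.20, adjusted p = 0.369). Hif1a, named after its values were seen, had 44.5 and 56.9 CPM at day 0, 39.8 and 37.9 at day 2, and 41.8 and 42.1 at day 4. It was called lower in the first step (-0.39, SE 0.13, adjusted p = 0.0218) and was not called over both steps (-0.27, SE 0.13, adjusted p = 0.0748). Cited1, which was not tested, had 0 to 11 counts per library.

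Beyond the FOXO pathway, 27 of 30 other genes linked to quiescence were tested, with 12 called higher and 4 lower by day 4 and a median of 0.24, beside 35.5% higher and 36.4% lower among all genes. Ypel3, a growth suppressor, rose by 3.49 (SE 0.17, adjusted p = 4.05e-08) and Ypel2 by 2.68 (SE 0.14, adjusted p = 6.84e-08). E2f4, which encodes the main E2F of the DREAM repressor complex, fell by 1.41 (SE 0.11, adjusted p = 9.13e-07), and Cdkn1c, a cell cycle inhibitor, fell by 1.36 (SE 0.27, adjusted p = 0.000859). Over the same days all 22 proliferation genes of the list were called lower, with a median of -1.47, where 36.4% of all genes were. In the first step 19 of them were lower, beside 31.5% of all genes, and in the second 21, beside 16.2%. Rrm2 and Tyms, which supply deoxynucleotides, fell by 2.60 and 2.40 (SE 0.12 and 0.15). Gata1, the erythroid master factor, rose by 0.37 (SE 0.11, adjusted p = 0.00772), and the alpha-globin gene Hba-a1 rose by 6.41 (SE 0.20, adjusted p = 6.88e-09).

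**Figure D4:**
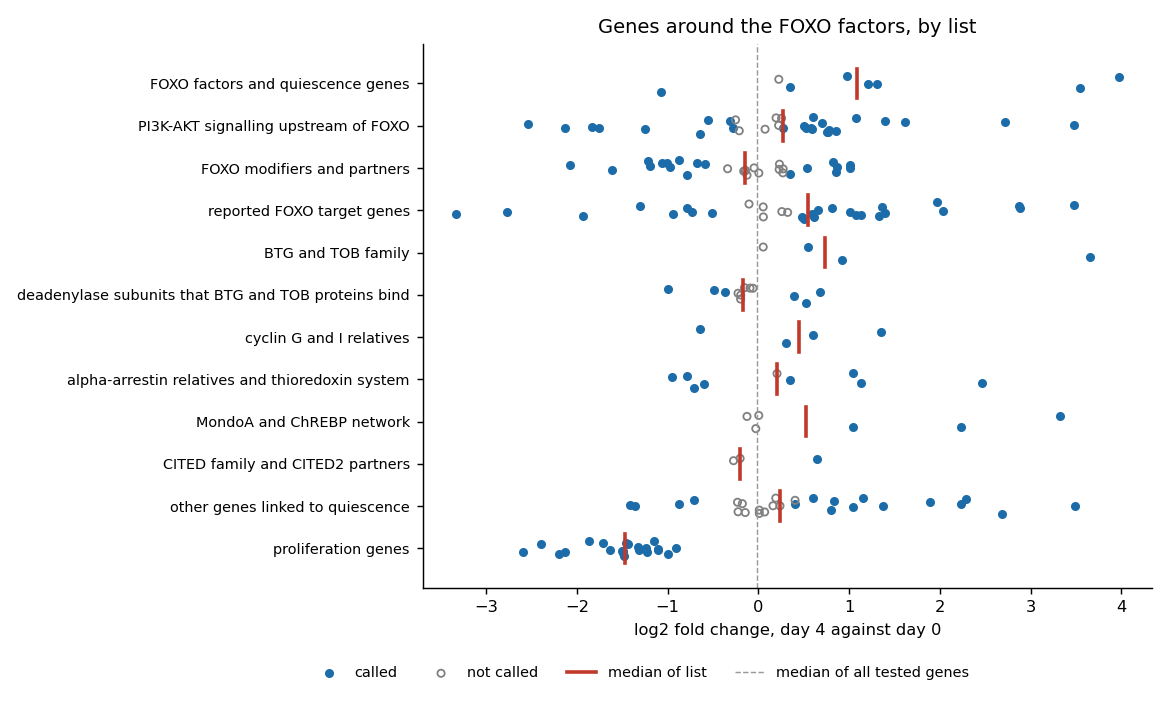
Log2 fold change from day 0 to day 4 (horizontal axis) of every tested gene of the FOXO group and of 11 surrounding lists, 1 row per list, with filled points for called genes, open points for genes not called, a red bar at each list's median and a dashed line at the median of all genes. The proliferation genes all lie below 0, and most other lists spread to both sides.

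The genes whose pattern over the 6 libraries came nearest to each of the 8 were found by the root mean square (RMS) difference of log2 CPM after centring, among 10446 genes. The nearest to Foxo3 was Bckdha, a subunit of the enzyme that breaks down branched-chain amino acids, at an RMS difference of 0.03, and the nearest to Foxo1 was Ppp4r4, at 0.03. Foxo4 ran closest to Rnf187 (0.03), Btg1 to Dkkl1 (0.04) and Ccng2 to 2210408I21Rik (0.04). Among the genes near Txnip was Thsd4 (0.12), which changed by 2.85 and 0.92 in the 2 steps where Txnip changed by 2.64 and 0.91. Pik3ip1 ran closest to Sbsn (0.09). The fall and partial return of Cited2 ran closest to that of Lss, which encodes lanosterol synthase of cholesterol synthesis, at an RMS difference of 0.12. The likeness is a description over 6 libraries that share their scaling and their treatment.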

How the data were processed

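The 6 mRNA-seq libraries were analysed. According to the methods and labels, the authors trimmed reads with cutadapt, aligned them to mm10 with TopHat, counted them with HTSeq and used DESeq2. The deposited values are raw counts per RefSeq transcript. The strand and overlap settings of the counting are not given in the sources used here. Reads assigned to no feature were left out.

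Counts were tested here in edgeR 4.0.16 (R 4.3.3) with TMM factors (0.921 to 1.07), filterByExpr by day and 1 quasi-likelihood fit over all 6 libraries. Benjamini-Hochberg adjustment covered 18351 transcripts. TPM used GENCODE lengths. The code was tested on simulated data. DESeq2 1.42.0, other scalings, no filter, fewer libraries and a replicate block were alternatives. Symbols came from RefSeq for 32195 of 32654 transcripts and from GENCODE for 191.

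The members and lists were chosen with earlier results of these data known. All 8 members were named, and per list the 2 largest called risers and 2 largest called fallers of log2 CPM 1 or more on average, plus preset relatives. Proteins were not compared, and a few genes that this rule names are not reported here.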

Additional observations from a re-analysis of the deposited data

How the results depend on the processing

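The number of the 8 genes called in the first step and over both steps stayed within 1.5 times its value under every alternative run. In the second step it was 3, and it was 6 when only the 2 days compared were fitted. Leaving out single libraries gave 1 to 6 there, 1 without day 2 replicate 1 and 6 without either day 0 replicate. A day left with 1 library was assumed to vary like the other days. The number whose 2 steps differed was 6 and ranged from 3 to 6. Differences between replicate 2 and replicate 1 correlated between days at 0.032 to 0.079 over 18351 transcripts. This cannot tell whether libraries with the same number came from 1 culture, since a small shared effect would also give low correlations. With a replicate block the counts called were 7, 3 and 7 and 6 for the difference of steps, Pik3ip1 gained its call in the second step (0.54, adjusted p = 0.0446) and Cited2 lost it (0.44, adjusted p = 0.0553). No other call on the 8 genes changed with the block. Of the list counts, the CITED list had 2 called without the low-count filter and 1 to 4 with single libraries left out, and the deadenylase list 3 to 6. Signs turned only where no change was called. Total counts gave -0.003 for the second step of Foxo1 and -0.16 for the step difference of Foxo4. Leaving out single libraries gave -0.032 to 0.18 for the second step of Foxo1, -0.003 to 0.23 for the first step of Foxo4, -0.28 to 0.10 for the step difference of Foxo3 and -0.0005 to 0.24 for that of Foxo4. The cause was not tested. TPM rose throughout when it was summed over 1 transcript per gene, as in Txnip at day 4 with 5723. With 2 libraries per day, small changes such as those of Foxo4 and Btg1 were near what the spread could resolve.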
